A study of Homo sapiens with 4 samples.

Results

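The strong and weak responders described here are T-47D breast carcinoma cells taken after 8 h of estrogen and ranked on 5 target genes. The summed unique molecular identifiers (UMIs, each of which marks 1 captured transcript) of PGR, GREB1, TFF1, CXCL12 and MYB, per 10000 UMIs of the cell, gave each cell a score. Members were selected on this measured score alone. The 138 cells with the highest scores were called strong and the 138 with the lowest were called weak, which is the top and the bottom 25% of 553 cells and 276 of them in all. The same split was made within the 1525 cells at 0 h (381 cells in each group), as the untreated reference, and within the cells at 2 and 4 h. Because each ranking was made within 1 time point, a strong 0 h cell is strong only among untreated cells.

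The study treated T-47D with 10 nM 17β-estradiol (E2) for 2, 4 or 8 h, and the 0 h cells received the vehicle. The single-cell methods do not name the vehicle, and other methods of the study name DMSO. All cells were from the established line grown in RPMI medium with fetal bovine serum, with no genetic change named in the labels. The study's cell culture methods move cells to hormone-depleted medium, free of phenol red and with stripped serum, 5 days before estrogen is added, so the 0 h cells are hormone-deprived, and the single-cell methods do not repeat this step. A MULTI-seq tag, a short DNA barcode anchored in the cell membrane, marked the time point, and all 4 time points were mixed and run as 1 single-cell 3′ library. Each time point was 1 culture, so no test and no p-value was possible, cells are not replicates of a treatment, and the intervals below (95%, exact) cover counting error only. The tag that assigned every 8 h cell, and those of the other 3 time points, are shown because the comparison between times rests on them.
8 h: TTCTGCCT
0 h: AGGAGTCC
2 h: CATGCCTA
4 h: GCAGCGTA

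Estrogen receptor α, encoded by ESR1, is a transcription factor that binds E2, moves onto enhancers opened by factors such as FOXA1 and GATA3, and recruits coactivators to its target genes. PGR encodes the progesterone receptor, GREB1 a cofactor of the receptor, TFF1 a secreted trefoil peptide, CXCL12 a chemokine and MYB a transcription factor of proliferating cells, and all are classic targets in breast cancer cells. In such cells estrogen is also known to drive entry into the cell cycle.

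The cells carried the marks of their label. At 8 h, 22 of 25 luminal markers were at or above 25 CPM (counts per gene scaled to the same total in each group of cells), with KRT8 at 4332, KRT18 at 4336 and KRT19 at 6940 CPM, while 1 of 24 basal and mesenchymal markers (ITGB4, 33.7 CPM) reached that level and 8 of them, the basal keratin KRT5 and the mesenchymal cadherin CDH2 included, had no UMI. Summed over these 24 markers the strong 8 h cells had 119 CPM and the weak ones 107. ANKRD30A was the luminal marker with no UMI. The strong 8 h cells held 3365499 UMIs and the weak 8 h cells 3213766, with medians of 23423.5 and 22502.5 per cell and of 4773 and 4414.5 genes. Other properties of the cells moved with the score. The median mitochondrial share was 11.5% in strong and 9.13% in weak 8 h cells, and the median share of MALAT1, a long non-coding RNA kept in the nucleus, was 6.48% against 1.23%. Both differences were also present at 0 h, with 11.4% against 9.10% and 5.84% against 2.35%. Results were therefore repeated within 5 bins of cells of like UMI count, MALAT1 share or mitochondrial share. What these differences contribute beyond those bins was not tested.

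The score of the 8 h cells ran from 0 to 20.2 with a median of 4.53, and 10 cells scored 0. The lowest strong cell had 6.98 and the next cell below it 6.96, and the highest weak cell had 2.65 and the next above it 2.67, so neither border fell in a gap. PGR made up 69.2% of the summed score at 8 h and 83.0% at 0 h. At 0 h the median was 1.17, and 8 of 1525 cells (0.525%, interval 0.227 to 1.03%) reached the lowest strong 8 h score, while 1271 (83.3%) lay at or below the highest weak 8 h score. At 2 h 121 of 1207 cells (10.0%) and at 4 h 175 of 1341 (13.0%) reached the strong range. Because the score chose the cells, the levels of its genes in them are a description. In strong and weak 8 h cells PGR was at 632 and 98.0 CPM, GREB1 at 78.7 and 17.4, TFF1 at 83.2 and 4.05, CXCL12 at 105 and 19.6, and MYB at 30.6 and 8.09. The same UMIs ranked the cells and gave these values. With the score and the values taken from separate UMIs of each cell, PGR was at 554 and 177 CPM (ratio 3.12), GREB1 at 62.8 and 25.6 (2.45), TFF1 at 69.4 and 6.87 (10.1), CXCL12 at 86.9 and 33.1 (2.62) and MYB at 26.6 and 13.1 (2.02). This removes shared counting error only. The same 5 genes still rank the cells, so these values too are a description. At 0 h the ratios from separate UMIs were 2.48 for PGR, 1.43 for GREB1 (interval 0.924 to 2.22) and 1.68 for TFF1 (0.954 to 3.05). They were 1.87 for CXCL12 (1.03 to 3.56) and 1.86 for MYB (0.837 to 4.42). The TFF1 level came from few cells, as 55 of 138 strong cells held its 280 UMIs and 1 of them held 25.

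**Figure D1:**
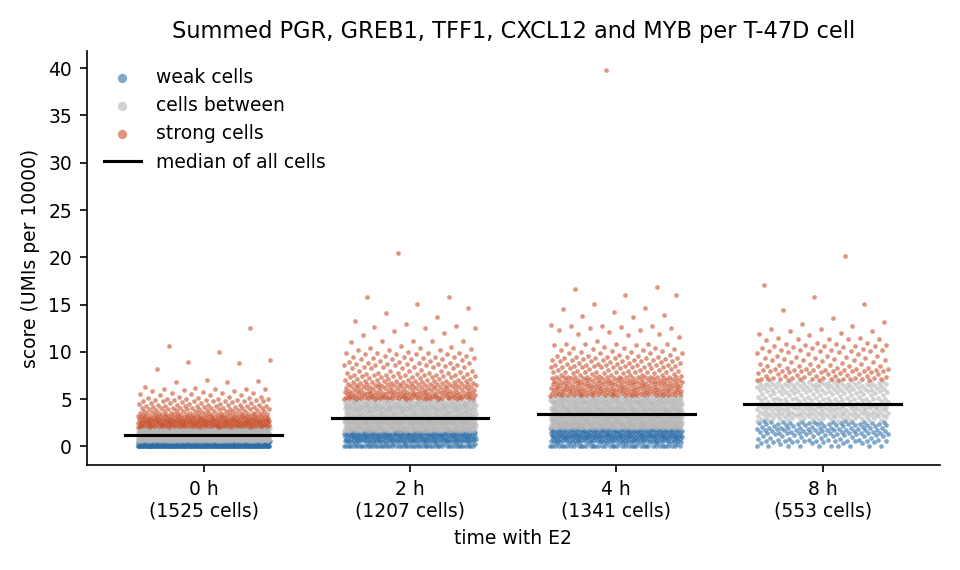
Score of each kept T-47D cell (UMIs of the 5 genes per 10000), by hours of E2 from 0 to 8. Blue points are weak cells, orange points strong cells and grey points the cells between, sideways position within a time carries no meaning, and the black line is the median, which was 1.17 at 0 h and 4.53 at 8 h.

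To ask whether the 5 genes varied together, each gene was measured in cells ranked on the other 4 alone. At 8 h all of them were higher in the cells strong for the other 4. PGR was at 461 CPM in strong and 231 in weak cells, a ratio of 2.00 (interval 1.83 to 2.18). GREB1 was at 67.8 and 23.6 CPM (ratio 2.87, 2.20 to 3.78), TFF1 at 28.6 and 10.4 (2.75, 1.84 to 4.22), CXCL12 at 83.6 and 29.9 (2.79, 2.21 to 3.56) and MYB at 25.6 and 13.8 (1.86, 1.28 to 2.74). At 0 h PGR differed less, with 155 against 124 CPM (interval of the ratio 1.15 to 1.36). Of the 1525 cells at 0 h, however, GREB1 had a UMI in 288, CXCL12 in 159, MYB in 122 and TFF1 in 106. Most cells therefore tied at 0 in the 0 h ranking without PGR, and ties were ordered by barcode name. The PGR ratios at 0 and 8 h thus come from unlike rankings and do not show whether PGR varied less with the other genes at 0 h. TFF1 had a 0 h ratio of 1.07, whose interval of 0.707 to 1.63 included 1. CXCL12 kept a ratio of 2.94 at 0 h (1.90 to 4.67) on 88 and 28 UMIs, GREB1 had 1.86 and MYB 1.67. Without cells rich in G2/M transcripts (defined below) the log2 difference of TFF1 at 8 h was 0.65 in place of 1.38. With every cell thinned to 10000 UMIs that of PGR was 0.53 in place of 1.00. That of MYB, 0.85 as reported, ran from 0.31 to 1.24 over the 7 alternatives tried.

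**Figure D2:**
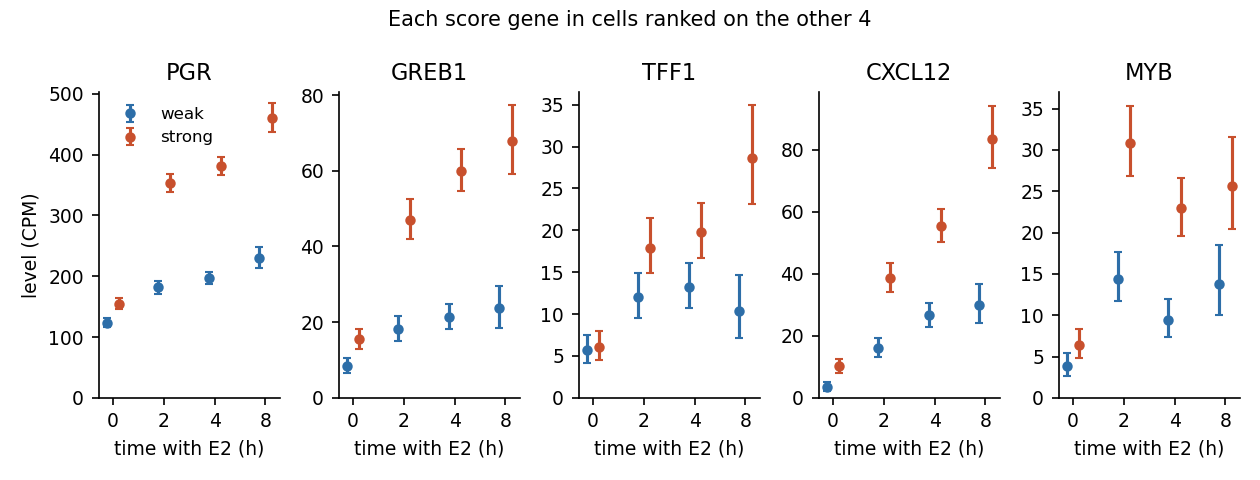
Level in CPM of each score gene in strong (orange) and weak (blue) cells ranked on the other 4 genes, by hours of E2, each panel with its own axis from 0. Bars are exact 95% Poisson intervals, and at 8 h strong and weak intervals are apart for every gene (PGR 461 against 231 CPM), whereas for TFF1 at 0 h they overlap.

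All other genes were then compared on CPM, with fold changes on the log2((CPM + 1)/(CPM + 1)) scale, strong over weak, which understates the change of low genes. Of 4570 genes with a mean of at least 25 CPM at 8 h, 218 (4.77%) were at least 1.5-fold higher in strong cells and 244 (5.34%) at least 1.5-fold lower. At 0 h, 34 of 4514 (0.753%) were higher and 79 (1.75%) lower. The 0 h groups held more UMIs than those at 8 h, 8596533 in strong and 8081343 in weak cells. In 0 h cells thinned to 10000 UMIs (3810000 per group), 21 were higher and 47 lower. With 152 cells from each end of the 0 h score (3372349 and 2828625 UMIs), 267 were higher and 149 lower. These smaller groups also hold more extreme scores, and how far depth alters the counts at either time was not tested. The median over all genes was -0.026 at 8 h and -0.025 at 0 h.

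Among estrogen targets outside the score, the genes called at 8 h were higher in strong cells. Of 45 listed targets 27 passed the minimum, 16 of these were higher in strong cells and 0 were lower, against the 4.77% higher among all genes, and their median was 0.60. With no minimum, 24 of the 45 were higher and 0 lower, where 2130 of 33533 genes, undetected ones included, were higher and 1505 lower. The count depended on the setting, and so did that of all genes. In cells thinned to 10000 UMIs 9 targets were higher and 1 lower, where 308 of 4585 genes were higher. They were 11 and 1 without PGR in the score (75 of 4539 genes higher) and 12 and 1 with the score genes weighted equally (114 of 4538). With separate UMIs for score and values they were 11 and 0 (247 of 4566), and between the upper and lower 50% of cells 8 and 0 (58 of 4550). At 0 h 18 passed, 0 were called in either direction and the median was 0.09. The 0 h ranking rested on few UMIs of the score genes. Of 1525 cells 185 scored 0, and the highest weak cell had a score of 0.585. Such a ranking separates cells less surely, and how far this lowers the 0 h differences was not tested. Over the 17 targets past the minimum at both times, 0 were higher at 0 h (median 0.08) and 7 at 8 h (median 0.51), and the difference between times has no replicate check. FMN1, a formin that nucleates actin filaments, was highest, at 38.9 CPM in weak cells, 61.0 and 92.1 in the cells between, and 143 in strong cells (log2 1.85). IGFBP4, a secreted binding protein of insulin-like growth factors, was at 51.3 CPM in weak and 114 in strong cells (1.13). OLFM1 was at 57.3 and 122 CPM (1.08), SLC9A3R1, a scaffold under the apical membrane, at 354 and 724 (1.03), and SIAH2, a ubiquitin ligase, at 42.9 and 82.9 (0.93). PRLR, the prolactin receptor, was at 956 and 1681 CPM (0.81) and had already differed by 0.58 at 0 h. AREG, a ligand of the epidermal growth factor receptor, was at 58.5 and 102 CPM (0.79), and RBBP8, a DNA repair factor, at 18.7 and 43.1 (1.16). Not all targets followed. KRT19 (0.04), FHL2 (42.6 CPM in weak and 42.5 in strong cells) and SLC39A6 (0.18) were near equal, CTSD was at 0.36 and CCND1, the D-type cyclin of G1, at 0.51. SLC7A5, an amino acid transporter, was the lowest at 99.8 CPM in strong and 149 in weak cells (-0.57). The median of the list was 0.59 within bins of MALAT1 share, 0.60 within bins of UMI count and 0.58 without cells rich in G2/M transcripts.

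**Figure D3:**
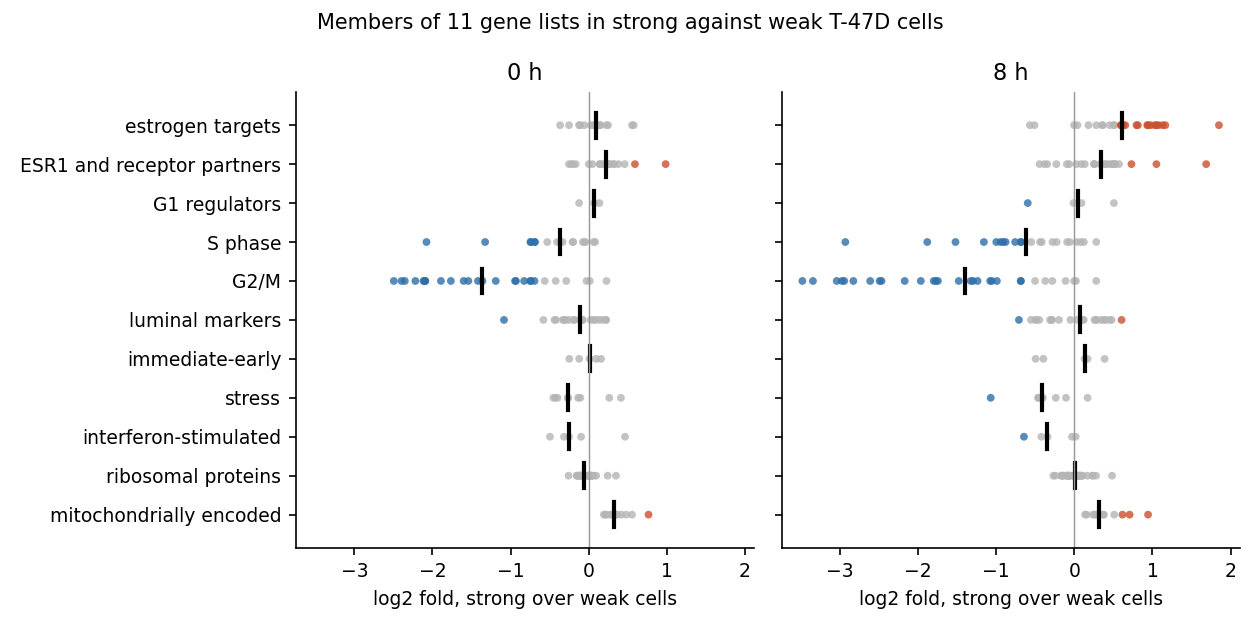
Log2 fold change, strong over weak cells, of the members past 25 CPM of 11 gene lists at 0 h (left) and 8 h (right). Orange and blue points are at least 1.5-fold higher or lower in strong cells, grey points neither, and black bars are list medians, which for estrogen targets were 0.09 at 0 h and 0.60 at 8 h and for G2/M genes -1.36 and -1.40.

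The receptor itself was among the genes most different. ESR1 was at 19.6 CPM in weak 8 h cells, 23.0 and 47.1 in the cells between and 65.4 in strong cells, with the step between the lower and the upper 50% of cells (log2 1.69, counting interval of the plain ratio 1.33 to 2.17, on 220 and 63 UMIs). At 0 h it was at 18.1 CPM in weak and 36.8 in strong cells (0.99), at 2 h at 14.5 and 48.4 (1.68) and at 4 h at 15.7 and 49.2 (1.59). Weak cells thus held 14.5 to 19.6 CPM at the 4 time points and strong cells 36.8 to 65.4. Within bins of MALAT1 share the 8 h difference was 1.45, and over the 16 alternatives that give a value for single genes it ran from 1.12, with score and values taken from separate UMIs of each cell, to 2.07, with the top and bottom 10% of cells. Of 26 receptor partners past the minimum, ESR1 included, 3 were higher and 0 lower at 8 h (median 0.34), against 4.77% higher among all genes. At 0 h 2 of 24 were higher (0.22), against 0.753%. Besides ESR1, those higher at 8 h were NRIP1 and MED1. NRIP1, a corepressor that is itself a target, was at 26.4 against 55.9 CPM (1.05). MED1, the Mediator subunit that contacts nuclear receptors, was at 31.1 against 52.3 CPM (0.73, and 0.59 at 0 h). The pioneer factor FOXA1 was at 98.3 CPM in weak and 125 in strong cells (0.34), and GATA3 at 414 and 576 (0.48), both short of 1.5-fold. The coactivator NCOA3 was at 39.5 and 49.9 CPM (0.33). PHB2, a prohibitin also described as a receptor repressor, was lowest of the list at 44.5 and 32.4 CPM (-0.45), and the chaperone HSP90AA1 had -0.35.

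Outside these lists the highest genes at 8 h were of mixed function. PTGES, a prostaglandin E synthase, led with 11.5 CPM in weak cells, 29.9 and 46.8 in those between and 53.8 in strong cells (2.13). It was followed, after FMN1 and ESR1, by SFXN2, a mitochondrial sideroflexin (18.4 against 58.2 CPM, 1.61), THSD4 (12.4 against 39.2, 1.58), and the matrix protein thrombospondin 1, THBS1 (15.2 against 46.1, 1.53). FBRS (1.42), SLFN5 (1.40), the secreted semaphorin SEMA3C (1.39) and PCP4 (1.33), a small calmodulin-binding protein, completed the 10. PCP4 differed at 8 h alone among the 4 times, with 16.5 CPM in weak and 43.1 in strong cells against log2 values of 0.11, -0.02 and 0.07 at 0, 2 and 4 h, where it was under the minimum. THSD4 by contrast had 0.74, 0.62 and 0.99 at those times, and PTGES had 0.56 at 0 h and 1.49 at 4 h.

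Weak 8 h cells differed from untreated cells. Against all 0 h cells, 131 of 4549 genes (2.88%) were at least 1.5-fold higher in weak 8 h cells and 37 (0.813%) lower, and in strong 8 h cells 147 (3.23%) and 169 (3.72%). Both comparisons used the same 0 h cells, so their values are given side by side. Division genes were part of these counts, as 20 of 28 G2/M genes and 12 of 19 S phase genes were higher in weak 8 h cells, and 14 of the 28 G2/M genes were lower in strong ones. Like with like, weak 8 h cells against weak 0 h cells had 87 genes higher and 24 lower. Of the division genes, 4 of 28 G2/M and 10 of 19 S phase genes were higher there and 0 lower. Strong 8 h cells against strong 0 h cells had 123 and 95, with 4 S phase genes higher and 1 G2/M gene lower. The estrogen targets higher were 14 of 24 in the weak and 18 of 24 in the strong comparison. Of 24 estrogen targets past the minimum here, 14 were higher in weak cells with a median of 0.78, and 19 in strong cells with a median of 1.18. OLFM1 was at 12.1 CPM in all 0 h cells, 57.3 in weak and 122 in strong 8 h cells. XBP1, a factor of the secretory pathway, was at 356, 665 and 808 CPM, STC2, a secreted stanniocalcin, at 27.3, 79.3 and 121, and MYBL1, a relative of MYB, at 17.6, 55.4 and 85.9. In these 4 genes the weak cells lay above the 0 h level. In others the weak cells lay near it. NRIP1 was at 23.2 CPM at 0 h, 26.4 in weak and 55.9 in strong 8 h cells, PRLR at 982, 956 and 1681, and TFF3, a trefoil peptide, at 560, 550 and 837. A class of genes chosen without any 8 h cell was also followed. In all, 40 genes (0.882% of 4536) were at least 1.5-fold higher at 2 h than at 0 h over all cells, 15 of them on the target list, and 37 passed the minimum here. Of these 37, 23 were higher in weak 8 h cells (median 0.74) and 34 in strong 8 h cells (1.18) than at 0 h. The same 0 h cells had served to choose the class, which favours both counts. Between strong and weak 8 h cells 19 of the 40 were higher and 1 lower, against 4.77% and 5.34% of all genes. The higher ones were 10 in thinned cells, 11 without PGR in the score, 10 with equal weights and 7 between the upper and lower 50% of cells. The counts over all genes in these settings are given above. The lower one was IRX2, a homeobox factor, at 52.7 CPM at 0 h, 115 in weak and 62.1 in strong 8 h cells, with the strong cells nearer the untreated level. Of the 18 genes (0.397%) lower at 2 h, also chosen against these 0 h cells, 5 were lower than at 0 h in weak 8 h cells and 12 in strong ones.

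**Figure D4:**
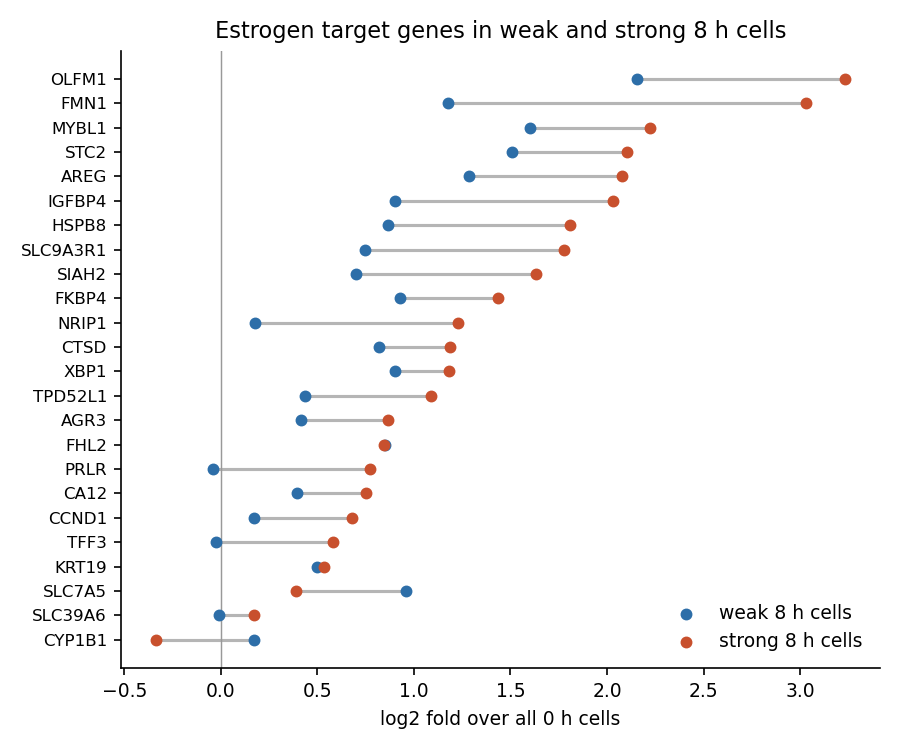
Log2 fold change of 24 estrogen targets in weak (blue) and strong (orange) 8 h cells over all 0 h cells, 1 line per gene. OLFM1 is highest in both, FHL2 and KRT19 show no gap between the groups, and SLC7A5 and CYP1B1 are the targets where the blue point lies clearly to the right of the orange one.

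Transcripts of cell division were higher in the weak cells. Of 30 G2/M genes past the minimum at 8 h, 0 were higher in strong cells and 23 were lower (median -1.40), against 5.34% lower among all genes, and of 22 S phase genes 0 were higher and 11 lower (-0.62). At 0 h the counts were 21 of 27 lower (-1.36) and 6 of 17 lower (-0.36), so the division genes differed at 0 h as well. TOP2A, the topoisomerase of dividing cells, was at 237 CPM in weak, 124 and 135 in the cells between and 41.3 in strong 8 h cells (-2.49), and the proliferation antigen MKI67 at 96.1, 45.8, 54.5 and 14.9 (-2.62). Among the lowest genes of all were NUSAP1, a spindle protein, at 266 CPM in weak and 22.9 in strong cells (-3.48), UBE2C, the ubiquitin-conjugating enzyme of the anaphase-promoting complex, at 157 and 14.6 (-3.35), CEP55 of the midbody (-3.14), SPC25 of the kinetochore (-3.10), PTTG1, the separase inhibitor securin (-3.04), DLGAP5 (-3.04) and HMMR (-2.98), both spindle proteins. In S phase genes RRM2, a subunit of ribonucleotide reductase, was lowest at 81.5 and 9.81 CPM (-2.93), followed by the thymidylate synthase TYMS (64.1 and 16.6), while MCM4 (0.08) and HELLS (0.12) were near equal. The linker histone HIST1H1D (-4.17, on 7 UMIs in strong and 175 in weak cells) and HIST1H4C (-3.06) were also among the 10 lowest, and both belong to families of near-identical genes whose counts are uncertain. S100A8 (-3.59), a calcium-binding protein, had 145 of its 219 UMIs of the weak cells in 1 cell. Of G1 regulators 4 of 21 passed the minimum, and the one called was E2F1 (-0.60).

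The sum of G2/M transcripts differed in its upper range, while the medians were close. The median sum of the 51 listed genes was 14.3 UMIs per 10000 in strong and 14.6 in weak 8 h cells, while the 90th percentile was 33.0 against 133 and the highest cell had 70.6 against 358. Cells over 3 times the median of all kept cells, a limit chosen after these values were seen, numbered 11 of 138 strong cells (7.97%, interval 4.05 to 13.8%) and 30 of 138 weak cells (21.7%, 15.2 to 29.6%). The cells between held 13 of 139 (upper) and 11 of 138 (lower), so at 8 h the other 3 groups had like shares and there was no steady trend with the score. In cells thinned to 10000 UMIs those over the limit were 12 strong and 30 weak cells. At 0 h, unthinned, they were 14 of 381 strong cells (3.67%), 28 of 382 and 41 of 381 of those between and 49 of 381 weak cells (12.9%). By contrast, cells with any UMI of TOP2A or MKI67 at 8 h were 61 of 138 in both strong and weak cells (44.2%). With the cells over the G2/M limit left out before the ranking, a choice made after the data were seen, 245 genes were higher and 124 lower at 8 h, ESR1 was at 1.61 and the estrogen targets had a median of 0.58. With every cell that held a UMI of TOP2A or MKI67 left out, 282 were higher and 161 lower, ESR1 was at 1.61 and the targets had 0.57. Both choices remove cells by their division transcripts, so they say nothing about the division genes themselves. The score is a share of a cell's own UMIs, and how far a larger pool of division transcripts lowers it was not tested.

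**Figure D5:**
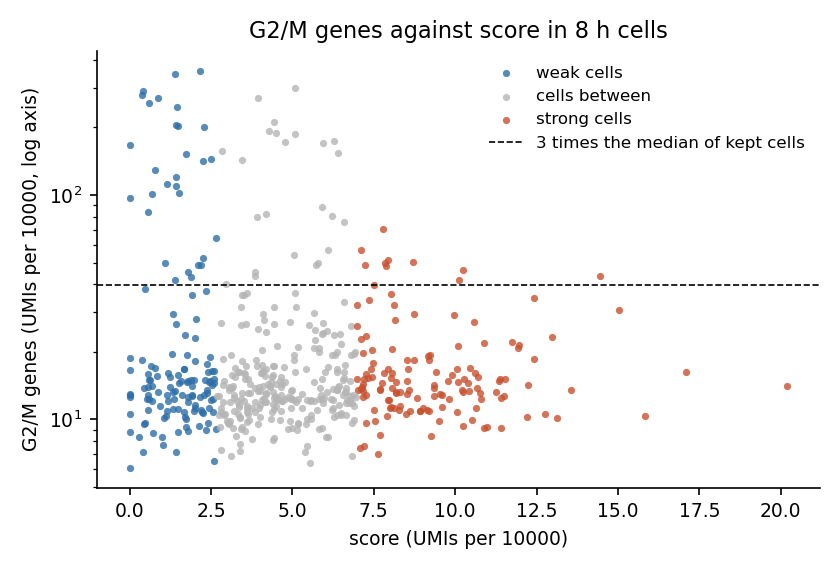
Summed UMIs of the 51 G2/M genes per 10000 (log axis) against the score of each of the 553 cells at 8 h, with weak cells in blue, strong cells in orange and the cells between in grey. The dashed line is 3 times the median of all kept cells, with 30 weak and 11 strong cells above it, and the highest strong cell is at 70.6 while weak cells reach 358.

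The promoters of the genes lower in strong cells more often held a pair of motifs that the score did not use. Promoters from RefSeq (GRCh38.p14, the build family of hg38, 250 bases before to 50 after the start) were searched on both strands for CCAAT, the box bound by NF-Y, for TTTGAA, a core of the cell cycle element CHR, and for the palindromic estrogen response element. Of the 244 lower genes 185 had a promoter in the table, and 60.5% of these held CCAAT, 25.9% TTTGAA and 37 of the 185 both. Among 3687 genes past the minimum the shares were 44.7%, 12.8% and 5.94%, among the 166 higher genes with a promoter 45.2%, 15.1% and 7.83%, and among all 27305 promoters 39.7%, 18.2% and 7.26%. Of lower genes on neither the G2/M nor the S phase list, 57.9% held CCAAT, 20.1% TTTGAA and 14.5% both (23 of 159). The response element was in 20 of the 27305 promoters and in 0 of those of genes past the minimum, which says only that these letters are not in this window. Of the 10 lowest genes at 8 h, UBE2C, HIST1H1D and HIST1H4C had no promoter to search, and S100A8 and PTTG1 held CCAAT without TTTGAA. Those of NUSAP1, SPC25, DLGAP5, HMMR and CEP55 held both motifs in this window. The first 4 are shown, because these genes are among the lowest of the split, 5′ to 3′ along the gene, with each CCAAT and TTTGAA (or its reverse complement) in capitals. A match is a description of the sequence and not a site.
NUSAP1, chr15:41332631-41332930, plus strand: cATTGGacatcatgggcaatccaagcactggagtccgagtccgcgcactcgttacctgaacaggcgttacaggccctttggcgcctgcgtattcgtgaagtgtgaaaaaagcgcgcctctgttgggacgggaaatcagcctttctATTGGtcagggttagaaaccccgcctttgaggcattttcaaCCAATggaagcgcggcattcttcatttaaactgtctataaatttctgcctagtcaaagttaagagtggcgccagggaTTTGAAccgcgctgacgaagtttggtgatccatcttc
SPC25, chr2:168890381-168890680, minus strand: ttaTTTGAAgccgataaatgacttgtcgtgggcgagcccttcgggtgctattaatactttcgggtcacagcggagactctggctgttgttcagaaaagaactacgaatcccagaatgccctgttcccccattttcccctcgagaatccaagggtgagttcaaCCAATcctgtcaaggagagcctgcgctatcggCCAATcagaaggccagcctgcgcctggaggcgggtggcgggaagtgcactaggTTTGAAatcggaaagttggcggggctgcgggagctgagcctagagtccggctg
DLGAP5, chr14:55191536-55191835, minus strand: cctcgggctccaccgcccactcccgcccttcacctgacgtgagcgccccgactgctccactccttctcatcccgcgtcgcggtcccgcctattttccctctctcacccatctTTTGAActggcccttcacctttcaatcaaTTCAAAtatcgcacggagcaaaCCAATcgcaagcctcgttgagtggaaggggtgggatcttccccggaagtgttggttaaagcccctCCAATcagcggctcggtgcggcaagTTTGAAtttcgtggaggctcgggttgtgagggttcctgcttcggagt
HMMR, chr5:163460382-163460681, plus strand: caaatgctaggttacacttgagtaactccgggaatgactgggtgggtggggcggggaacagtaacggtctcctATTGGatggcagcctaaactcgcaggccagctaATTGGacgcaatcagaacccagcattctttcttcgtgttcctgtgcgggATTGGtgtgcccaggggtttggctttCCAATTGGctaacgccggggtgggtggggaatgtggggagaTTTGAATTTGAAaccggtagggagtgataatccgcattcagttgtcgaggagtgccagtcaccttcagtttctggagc

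Higher and lower genes also differed in length. The median RefSeq gene length at 8 h was 68059 bases for higher, 17624.5 for lower and 25685 for all genes past the minimum, with a length for 94.0%, 93.4% and 95.8% of them. At 0 h the medians were 138112.5, 13863 and 25323 bases. Strong cells also had the higher share of MALAT1 (above), and the part of either in the calls was not tested beyond the bins of MALAT1 share, within which 161 genes were higher and 162 lower.

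The remaining lists had at most 3 genes called each, where 4.77% of all genes were higher and 5.34% lower. Of 22 luminal markers 1 was higher, TFF3 (550 against 837 CPM, 0.60), and 1 lower, KRT7 (356 against 217 CPM, -0.71), with a median of 0.07. All 13 mitochondrially encoded genes lay above 0 at both times (medians 0.32 at 8 h and 0.32 at 0 h), and 3 were called at 8 h, led by MT-ND6 at 194 and 374 CPM (0.94). The UMIs of these genes make up the mitochondrial share given above. Bins of that share hold the list's sum near equal, so its median of 0.05 within them was set by the bins and shows nothing further. The 36 ribosomal protein genes had a median of 0.01 with none called, from RPL8 (-0.27) to RPL23 (0.48). Of 9 stress genes 1 was called, DDIT3, a factor of the integrated stress response, at 42.9 CPM in weak and 19.9 in strong cells (-1.07), and the list's median was -0.41. DDIT3 had 0.26 at 0 h and -1.02 and -1.04 at 2 and 4 h, so its sign at 0 h was the opposite of that at the other 3 times. Of 5 interferon-stimulated genes 1 was lower, HLA-C (225 against 143 CPM, -0.65), with -0.50 at 0 h. None of 5 immediate-early genes was called, from JUND (-0.50) to MCL1 (0.39), and ITGB4, the basal marker past the minimum, had 0.03.

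The same split at 2 and 4 h, in cells that the 8 h split did not use, gave 164 (3.57%) and 133 (2.93%) higher and 209 (4.55%) and 144 (3.17%) lower genes. Of the 218 genes higher at 8 h, 191 were past the minimum at 2 h and 189 of these (99.0%) lay above 0 there, and 199 of 200 (99.5%) did so at 4 h, where 46.2% and 49.2% of all genes did. Genes called higher at both 8 h and 2 h numbered 84, which is 38.5% of the 8 h genes and 51.2% of the 2 h genes. For 0 h, 165 of 172 (95.9%) lay above 0 against 45.5% of all genes, but 16 were called, 7.34% of the 8 h and 47.1% of the 0 h genes. Of the 244 lower genes, 75 were called at 0 h, 30.7% of the 8 h and 94.9% of the 0 h genes. Genes higher in strong cells at all 4 time points were 9, and genes lower at all 4 were 66. The 9 were ESR1, TENM3, SEMA3C, MT-ND6, MALAT1, the Mediator kinase module subunit MED13L, the chromatin remodelling subunits ARID1B and ARID2, and GABPB1-AS1, an antisense RNA whose reads were assigned with a strand setting not given in the sources used here. TENM3, a teneurin of the cell surface, was at 28.8 and 53.6 CPM in weak and strong cells at 0 h (0.87) and at 35.2 and 85.3 at 8 h. SEMA3C was at 43.8 and 69.6 CPM at 0 h (0.66) and at 57.3 and 152 at 8 h (1.39). The phosphatase PPM1K (0.79) and the zinc finger gene ZMYM2 (0.87), with ESR1, TENM3 and MT-ND6, were the 5 highest at 0 h. Among the 66 lower genes were CDKN3 (-2.86 at 8 h) and BIRC5 (-2.95), both of dividing cells.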

How the data were processed

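A single-cell 3′ library of T-47D cells at 4 time points was analysed. The authors deposited UMI counts per gene and barcode, made with Cell Ranger 3.1.0 (the submitters' processing notes name that tool and hg38), and time points called from MULTI-seq tags with the demultiplex R package. Of 18188 barcodes, 4626 were called to 1 time point. All passed the study's limits (7500 to 40000 UMIs, 1500 to 6000 genes, under 20% mitochondrial UMIs), and none had under 10004 UMIs. The 1442 tag doublets and uncalled barcodes were left out. Pairs of cells with 1 tag were not removed and no doublet caller was run. The T-47D and Ishikawa libraries share 80 barcodes, 16 of them kept T-47D cells.

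Counts were summed over strong and over weak cells and scaled to CPM (Python 3.11.15, numpy 2.4.6, scipy 1.17.1). Genes with a mean of 25 CPM and a 1.5-fold difference (pseudocount 1) were called. CPM intervals are exact Poisson, shares Clopper-Pearson, ratios exact conditional. Functions were tested on simulated data.

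Named were the 5 score genes; ESR1, FOXA1, GATA3, NRIP1, NCOA3, CCND1, TOP2A and MKI67; the 10 highest and lowest genes at 8 h and the 5 at 0 h; the ends of each list; and up to 10 genes in each direction called at all 4 times. Further list members were named after their values were seen. Members and lists were chosen with earlier results of these data known. The 18 planned and 3 added alternatives are in the closing section.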

Additional observations from a re-analysis of the deposited data

How the results depend on the processing

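No paired analysis was possible because each time point was 1 culture with no replicate number, and for the same reason no replicate could be left out. Of the list medians at 8 h, those of the estrogen targets (0.39 to 0.71), the receptor partners (0.14 to 0.43), the genes raised at 2 h (0.33 to 0.67) and lowered at 2 h (-0.37 to -0.11) and the stress genes (-0.46 to -0.22) kept their sign under all 21 alternatives, as did the weak-cell medians against 0 h under the 7 tried (estrogen targets 0.73 to 0.88). The interferon-stimulated (-0.55 to -0.13) and mitochondrially encoded (0.046 to 0.38) medians also kept their sign under all 21, but moved in some settings, as given below. The bins of MALAT1 and mitochondrial share and the limit on G2/M transcripts were added after the data were seen. Where a value moved, the cause was not tested.

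Counts of called genes depended most on the settings. At 8 h the higher and lower genes numbered 543 and 451 with a minimum of 10 CPM, 82 and 151 with 50 CPM, 2130 and 1505 with none, 777 and 772 with a lower fold limit, 28 and 84 at 2-fold, 75 and 134 without PGR in the score, 114 and 157 with the 5 genes weighted equally, 485 and 446 between the top and bottom 10% and 58 and 76 between the upper and lower 50% of cells. The share of calls that were higher was 47.2% as reported, 35.9% without PGR and 66.4% without cells rich in G2/M transcripts. The lower genes were 161 without cells with TOP2A or MKI67, 162 within MALAT1 bins and 124 without cells rich in G2/M transcripts. At 0 h the higher genes were 150, 6 and 811 with minimums of 10, 50 and no CPM, 427 and 0 with the lower limit and at 2-fold, 16 with a pseudocount of 5, 21 in thinned cells, 4 without PGR, 58 with PGR alone, 5 with equal weights, 267 and 3 for 10% and 50%, 16 within MALAT1 bins and 14 within mitochondrial bins. The lower genes at 0 h were 164 and 452 with a minimum of 10 CPM and none, 366 and 37 with those limits, 47 in thinned cells, 18 without PGR, 149 and 48 for 10% and 50%, 23 without TOP2A or MKI67 cells and 20 without cells rich in G2/M transcripts.

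The G2/M median was -1.84 and -1.91 with a minimum of 10 CPM and none, -0.85 in thinned cells, -1.05 with equal weights and -0.75 for 50%, and the S phase median was -0.26 thinned and -0.29 for 50%. The alternatives that leave out cells by TOP2A and MKI67 or by G2/M transcripts select on the genes measured, so their values for division genes do not bear on that difference and are given for completeness. The G2/M medians were 0.42 and 0.40 over 13 and 14 genes in place of 30, and the S phase medians 0.15 and 0.049. Without TOP2A or MKI67 cells HIST1H1D (1.05), NUSAP1 (0.92), UBE2C (0.020), SPC25 (0.78), HIST1H4C (0.84) and PTTG1 (0.61) were then above 0, and without cells rich in G2/M transcripts TOP2A (0.44), MKI67 (0.31), HIST1H1D (1.29), NUSAP1 (0.51), SPC25 (0.050), HIST1H4C (0.56), PTTG1 (0.20) and DLGAP5 (0.61).

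Other list medians moved as well. That of the G1 regulators, 4 genes, ran from -0.15 to 0.30. The immediate-early median was -0.17, -0.11 and -0.11 with minimums of 10, 50 and no CPM, -0.099 thinned, -0.12 without PGR, -0.14 for 10%, -0.15 under a lower UMI limit, -0.31 without TOP2A or MKI67 cells and -0.19 without cells rich in G2/M transcripts. The interferon median was -0.55 with no minimum, -0.15 with equal weights and -0.13 for 50%, and the luminal median -0.056 thinned and -0.085 without TOP2A or MKI67 cells. The mitochondrial median was 0.36 thinned, 0.046 without PGR, 0.38 with PGR alone, 0.070 with equal weights, 0.28 for 10% and 0.18 for 50%. It was 0.36 under the UMI limit, 0.18 without TOP2A or MKI67 cells and 0.22 without cells rich in G2/M transcripts. Within MALAT1 and mitochondrial bins it was 0.11 and 0.050, the latter bins being cut on the sum of the same genes. The ribosomal median was -0.067 thinned, 0.10 without PGR, -0.068 with PGR alone, 0.090 with equal weights, -0.036 under the UMI limit, 0.086 and 0.066 within those bins and -0.052 without cells rich in G2/M transcripts. For score genes ranked on the other 4, PGR was at 0.53 thinned, 0.82 without TOP2A or MKI67 cells and 0.86 without cells rich in G2/M transcripts, GREB1 at 0.99 and CXCL12 at 0.87 thinned, and TFF1 at 0.65 without cells rich in G2/M transcripts.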
